A study of Homo sapiens with 9 samples.

Results

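Zinc finger genes on chromosome 19 were defined as the protein-coding genes of that chromosome whose RefSeq symbol is ZNF followed by a number and an optional letter. The rule found 246 genes among 20037 protein-coding genes of the annotation, against 1205 other protein-coding genes on the same chromosome and 263 ZNF genes on other chromosomes. The rule used names and positions and no measured value. The study comprised 9 libraries from human cell lines, and 6 of them came with a list of called peaks, here called intervals. The RBPJ lists are CUT&Tag data, made by antibody-guided transposase cutting, from HEK293T, an embryonic kidney line. The ATAC lists, in which free transposase cuts accessible DNA, are from cells labelled Jurkat, a leukaemic T cell line.

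The RBPJ antibody was used in 4 HEK293T libraries. A wild-type and an FBXO42 knockout library made the first pair. The second pair was titled RBPJ and RBPJK175R, and both of its libraries carry the genotype label FBXO42 knockout, so FBXO42 loss is shared by that pair. The labels do not say how RBPJ or its RBPJK175R form entered these cells. The ATAC pair was an FBXO42 wild-type and an FBXO42 knockout library. FBXO42 selects substrates for a ubiquitin ligase, and RBPJ binds DNA for the Notch pathway. The series asks whether FBXO42 acts on RBPJ and on chromatin. Each group had 1 library, so no difference below has a replicate check and none was tested. RBPJ and ATAC lists come from different cell lines and assays, so any difference between these kinds of list cannot be told apart from the cell line.

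Most ZNF genes of chromosome 19 arose by repeated local duplication and lie in tandem clusters. Many encode proteins with a KRAB domain and an array of C2H2 zinc fingers. The array binds DNA, often within transposable elements, and the KRAB domain recruits TRIM28, which brings the histone methyltransferase SETDB1 and heterochromatin proteins. The fingers are typically encoded by 1 long exon at the 3′ end of the gene, and heterochromatin marks over that exon are a known feature of these clusters. Intervals were therefore read at the gene ends and inside the genes separately. A gene-end interval overlapped the window of 1 kb on either side of an annotated start or end of the gene by at least 1 bp. An inside interval overlapped the gene but neither window.

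The 250 bases before the start are shown for 7 of these genes, since the results below turn on the start. Sequences are from RefSeq on GRCh38.p14, read 5′ to 3′ on the gene's own strand. Capitals mark TGGGAA, the core of the RBPJ site, CCGGAAG, a core of ETS factor sites, and GGGCGG, the GC box, or the reverse complement of each. ZNF837 (chr19:58381031-58381280, minus strand) and ZNF566 (chr19:36489562-36489811, minus strand) held a gene-end interval in all 6 lists. ZNF260 (chr19:36528272-36528521, minus strand) and ZNF850 (chr19:36772808-36773057, minus strand) hold a longer element, ACTACA and TTCCCA separated by 1 base, on either strand, of which only the TTCCCA or TGGGAA part is in capitals. ZNF383 (chr19:37217964-37218213, plus strand) held an interval in every list but the knockout RBPJ list. ZNF431 (chr19:21141790-21142039, plus strand) and ZNF493 (chr19:21396883-21397132, plus strand) both lie in the cluster next to the centromere. ZNF431 was in both ATAC lists and 2 RBPJ lists, and ZNF493 was in both ATAC lists and no RBPJ list.
ZNF837: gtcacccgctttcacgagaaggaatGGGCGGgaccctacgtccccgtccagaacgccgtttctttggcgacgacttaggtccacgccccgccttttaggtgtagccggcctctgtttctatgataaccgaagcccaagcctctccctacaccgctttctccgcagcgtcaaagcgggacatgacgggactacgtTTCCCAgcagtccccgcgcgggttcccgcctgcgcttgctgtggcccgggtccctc
ZNF566: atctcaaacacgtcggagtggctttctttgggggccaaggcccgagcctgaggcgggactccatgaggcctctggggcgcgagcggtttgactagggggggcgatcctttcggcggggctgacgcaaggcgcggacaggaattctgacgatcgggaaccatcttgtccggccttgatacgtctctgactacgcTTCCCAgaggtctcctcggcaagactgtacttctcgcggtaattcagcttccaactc
ZNF260: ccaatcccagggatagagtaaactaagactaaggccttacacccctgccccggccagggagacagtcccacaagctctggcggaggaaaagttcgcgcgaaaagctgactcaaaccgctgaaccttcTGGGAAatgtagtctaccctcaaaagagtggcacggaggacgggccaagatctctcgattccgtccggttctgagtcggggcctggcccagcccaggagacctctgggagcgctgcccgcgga
ZNF850: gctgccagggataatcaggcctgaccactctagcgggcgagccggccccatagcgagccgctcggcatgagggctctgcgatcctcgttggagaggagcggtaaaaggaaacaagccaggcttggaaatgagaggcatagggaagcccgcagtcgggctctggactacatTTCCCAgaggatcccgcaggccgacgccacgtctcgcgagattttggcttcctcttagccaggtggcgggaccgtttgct
ZNF383: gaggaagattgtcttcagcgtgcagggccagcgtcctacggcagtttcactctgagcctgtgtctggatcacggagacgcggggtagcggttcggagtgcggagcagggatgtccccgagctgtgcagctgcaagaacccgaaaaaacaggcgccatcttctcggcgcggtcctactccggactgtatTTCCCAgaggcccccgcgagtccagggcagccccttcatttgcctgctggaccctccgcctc
ZNF431: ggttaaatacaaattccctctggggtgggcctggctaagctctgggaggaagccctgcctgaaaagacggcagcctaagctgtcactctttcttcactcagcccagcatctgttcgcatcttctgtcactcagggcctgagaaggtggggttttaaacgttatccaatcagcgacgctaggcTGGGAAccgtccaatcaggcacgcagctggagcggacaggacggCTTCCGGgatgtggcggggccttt
ZNF493: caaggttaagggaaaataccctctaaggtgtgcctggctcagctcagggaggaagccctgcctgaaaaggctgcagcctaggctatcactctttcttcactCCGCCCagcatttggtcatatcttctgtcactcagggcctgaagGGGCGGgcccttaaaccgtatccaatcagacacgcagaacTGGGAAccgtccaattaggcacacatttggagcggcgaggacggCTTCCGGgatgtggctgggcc

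The lists differed in length and depth. They held 42656 intervals in the wild-type RBPJ list, 36877 in the knockout RBPJ list, 19913 in the list titled RBPJ, 22691 in the list titled RBPJK175R, and, for ATAC, 31886 in wild type and 20093 in knockout. The median number of reads at an interval's summit, recovered from the deposited fold and p-value, was 15, 15, 17, 9, 12 and 8 in that order. Chromosome 19 held 7.28% of the intervals of the wild-type RBPJ list and 9.34% of those of the knockout RBPJ list. Of 12 T cell markers, RAG1 and ZAP70 (2) had a gene-end interval in the ATAC list of wild type and RAG1 (1) in that of the knockout, so most markers of the labelled T cell line had none. The wild-type RBPJ list of HEK293T had 3 of the 12 (CD247, LCK and RAG1), so these markers did not set the ATAC lists apart, and the Jurkat label is not borne out by them. Of 8 kidney and epithelial markers, 5 had one in the wild-type RBPJ list, 3 in the ATAC list of wild type and 4 in that of the knockout. Over all protein-coding genes the shares with a gene-end interval were 54.2%, 56.3% and 42.7% in these lists. With 8 genes the counting error is wide and the differences were not tested, so these counts do not tell the cell line of the ATAC lists.

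ZNF genes of chromosome 19 carried an RBPJ interval at a gene end less often than their neighbours on the chromosome, and an ATAC interval more often. In the wild-type RBPJ list 102 of 246 (41.5%, Clopper-Pearson 95% interval 35.2 to 47.9) had one, against 63.5% of the other genes of chromosome 19 and 54.2% of all protein-coding genes. ZNF genes on other chromosomes stood at 63.1%, so the lower share was not common to ZNF genes. In the wild-type ATAC list 152 of 246 (61.8%) had one, against 52.0% of the other chromosome 19 genes and 56.3% of all. The interval of that share, 55.4 to 67.9, lay above the share of the other chromosome 19 genes. It lay below the 74.1% of ZNF genes elsewhere.

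The other lists gave the same order against the other genes of the chromosome. In the knockout RBPJ list 75 ZNF genes (30.5%) had a gene-end interval, against 59.8% of other chromosome 19 genes and 41.0% of all protein-coding genes. The list titled RBPJ had 83 (33.7%), against 46.1% and 38.2%, and the list titled RBPJK175R had 76 (30.9%), against 37.3% and 29.3%. The ZNF share in the list titled RBPJK175R was thus near that of all genes, and in the list titled RBPJ its interval, 27.86 to 40.02, included that of all genes. For the list titled RBPJK175R the difference from other chromosome 19 genes was −6.45 percentage points. Its interval from the counting errors of both shares, −12.8 to 0.312, included equality. The knockout ATAC list had 124 (50.4%), against 39.3% and 42.7%. With only intervals of a −log10 q of at least 10, the difference from other chromosome 19 genes in that list turned from 11.1 to −2.72 percentage points, on 27 ZNF genes.

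Where a strand was known, the intervals sat at the start of the gene. RefSeq promoter entries gave a strand for 216 of the 246 genes, 116 on the plus and 100 on the minus strand. In the wild-type RBPJ list 85 of the 216 had an interval at the 5′ end (39.4%, against 53.2% of all genes with a strand) and 16 at the 3′ end (7.41%, against 13.6%). Other genes of chromosome 19 had a 3′ interval in 34.2%. In the knockout RBPJ list the counts were 64 (29.6%, against 38.4%) and 14 (6.48%, against 13.4%). The list titled RBPJ had 71 (32.9%, against 36.9%) and 11 (5.09%, against 7.0%), and the list titled RBPJK175R had 61 (28.2%, against 27.4%) and 12 (5.56%, against 5.96%). In the ATAC lists, wild type had 136 (63.0%, against 56.5%) and 5 (2.31%, against 6.89%). Knockout had 110 (50.9%, against 43.6%) and 4 (1.85%, against 4.2%). The difference between the ends was thus present in every list, and the 3′ end of a ZNF gene was seldom in an interval.

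The leading fold of every list belonged to a ZNF gene found in all 6 lists. All 6 lists held a gene-end interval at 44 ZNF genes (17.9%, against 17.5% of all protein-coding genes), and 74 had none in any list (30.1%, against 30.2%). Neither share differed from its background by more than its counting error. The highest mean rank of fold, the authors' ratio of pileup to local background, belonged to ZNF473, a component of the machinery that processes histone transcripts. Its folds were 34.2 and 24.8 in the wild-type and knockout RBPJ lists, 44.5 and 71.5 in the lists titled RBPJ and RBPJK175R, and 10.5 and 12.3 in the ATAC lists. The reads at its summits were 334, 157, 273, 176, 38 and 28 in the same order. ZNF473 is not in a cluster, and its fold in the list titled RBPJK175R was the highest of all 246 genes in any list.

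ZNF837 led both lists of the first pair, with folds of 41.5 in wild type and 31.7 in knockout. It had 16.8 and 11 in the lists titled RBPJ and RBPJK175R, and 8.33 and 6.22 in the ATAC lists. ZNF524 had folds of 34.5, 28.0, 24.7, 25.9, 7.94 and 7.88, and 482, 292, 364, 197, 45 and 27 reads at its summits, the most of the 246 genes in each of the 4 RBPJ lists. ZNF146, whose product consists almost wholly of zinc fingers, had 10.7, 17.7, 16.2, 17.6, 15.3 and 15.9, and was first in both ATAC lists by fold and, with 60 and 45, by reads. ZNF566, ZNF8, ZNF557, ZNF460, ZNF443 and ZNF181 completed the 10 with the highest mean rank. The folds of ZNF181 ran from 6.22 in the knockout ATAC list to 42.2 in the list titled RBPJ. ZNF274, a KRAB protein known to bind the 3′ exons of other ZNF genes and to recruit SETDB1 there, had folds of 23.1, 6.62, 4.55, 4.76, 12.4 and 12.7 at its own gene ends.

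RBPJ and ATAC intervals were often but not always at the same genes. Of the 102 ZNF genes in the wild-type RBPJ list, 91.2% were also in the wild-type ATAC list, against 75.8% of the other chromosome 19 genes and 91.6% of ZNF genes elsewhere. In the other direction, 61.2% of the 152 in the wild-type ATAC list were in the wild-type RBPJ list, against 92.5% of the other chromosome 19 genes and 77.9% of ZNF genes elsewhere. An interval in both ATAC lists and in no RBPJ list was found at 22 ZNF genes (8.94%), against 3.27% of all genes and 0.581% of the other chromosome 19 genes. ZNF genes on other chromosomes had it in 7.22%, so the pattern was shared with them. ZNF493 was the one with the highest ATAC fold, 15.2 in wild type and 12.2 in knockout, with 36 and 19 reads. The reverse pattern, all 4 RBPJ lists and no ATAC list, was found at ZNF155 and ZNF544 (0.813%, against 0.913% of all genes). ZNF155 had RBPJ folds of 19.1, 14.1, 22.9 and 14.3. ZNF544 ends beside ZNF8, and the same interval gave both genes their values of 10.7, 17.9 and 8.52 in the last 3 RBPJ lists.

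**Figure D1:**
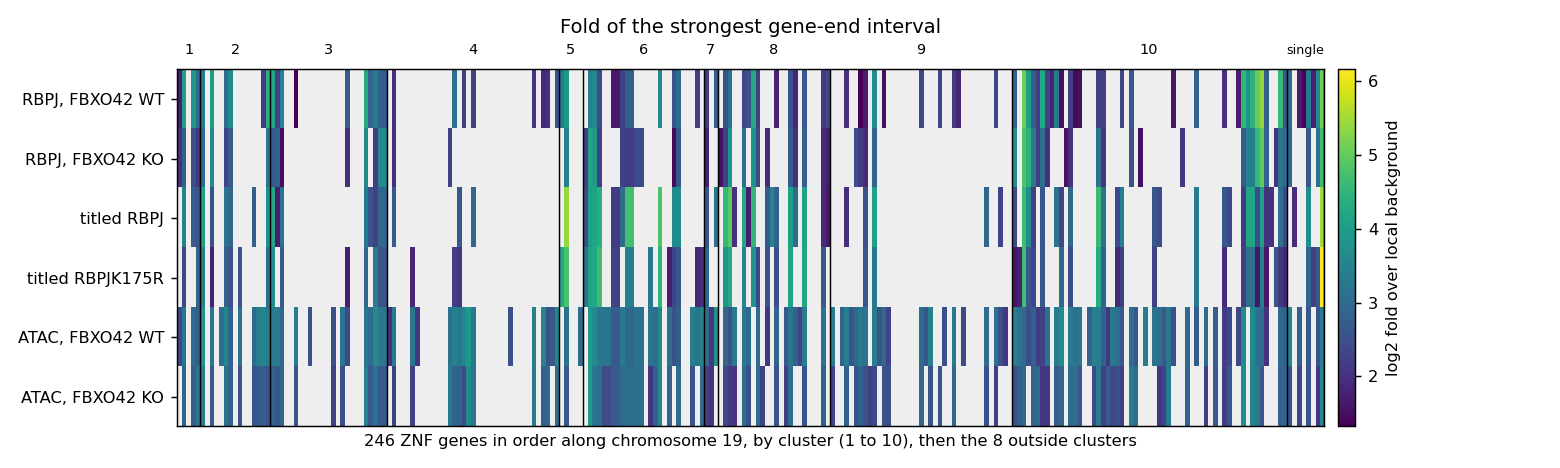
Fold of the strongest gene-end interval on a log2 colour scale for the 246 ZNF genes (columns, in chromosome order and divided by cluster) in the 6 lists (rows). Grey marks genes with no gene-end interval in that list. Clusters 4 and 9 are mostly grey in the RBPJ rows, and the ATAC rows are filled at more genes.

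Along the chromosome, 238 of the 246 genes fell into 10 clusters, defined as runs of at least 3 genes with gaps of at most 1 Mb. Cluster 1 (2.82 to 2.95 Mb, 5 genes from ZNF554 to ZNF77) had 4 genes in each of the wild-type and knockout RBPJ lists and 4 in the wild-type ATAC list. Its leading gene, ZNF555, had folds of 16.6 and 6.97 in the first pair. Cluster 2 (7.07 to 9.79 Mb, 15 genes) had 6 genes in the wild-type RBPJ list, 5 in the knockout RBPJ list and 10 in the wild-type ATAC list. ZNF846 led it, with folds of 20.5 and 8.97 in the first pair. Cluster 3 (11.5 to 12.6 Mb, 25 genes) had 10, 8 and 13 genes in those lists, and 12 genes in none of the 6. Its leading gene was ZNF443, with folds of 19.2 and 12.5.

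Cluster 4 (19.7 to 24.1 Mb, 37 genes, next to the centromere) was the sparsest of the large clusters in the RBPJ lists of the first pair. Of its genes 8 were in the wild-type RBPJ list (21.6%) and 2 in the knockout RBPJ list, and 3 were in each of the lists titled RBPJ and RBPJK175R. No gene of the cluster had an inside interval in the first 3 RBPJ lists. The ATAC lists held 16 and 12 of its genes, and 21 were in none of the 6 lists. ZNF431 led the cluster with a fold of 8.30 on 22 reads in wild type and had no interval in the knockout RBPJ list. Many genes of this cluster are close paralogs, and the treatment of reads that map to several places is not stated in the labels, so a count of 0 there is uncertain.

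Cluster 5 (34.7 to 35.0 Mb, 5 genes) had 2 genes in the wild-type RBPJ list, ZNF181 and ZNF302. Cluster 6 (36.2 to 37.8 Mb, 26 genes) had 12, 11, 12 and 15 genes in the RBPJ lists and 21 and 19 in the ATAC lists, the largest RBPJ count being that of the list titled RBPJK175R. Cluster 7 (39.997 to 40.091 Mb, 3 genes) had every gene in the wild-type ATAC list. Cluster 8 (43.5 to 45.1 Mb, 24 genes) had 12 genes in each list of the first pair, 14 and 10 in the second, and 14 and 12 in the ATAC lists.

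Cluster 9 (51.6 to 53.6 Mb, 39 genes) resembled cluster 4, with 10, 4, 5 and 2 genes in the RBPJ lists and 21 and 15 in the ATAC lists. ZNF616 led it, with RBPJ folds of 12.6, 7.5, 16.9 and 9.55. Cluster 10 (55.5 to 58.5 Mb, 59 genes), at the end of the long arm, had 29, 23, 26 and 24 genes in the RBPJ lists and 43 and 35 in the ATAC lists, and 9 genes in none. It held ZNF837, ZNF524 and ZNF497, the 3 highest folds of the wild-type RBPJ list within clusters. All 8 genes outside clusters (ZNF333, ZNF536, ZNF507, ZNF574, ZNF526, ZNF541, ZNF114 and ZNF473) were in at least 1 list. Of all protein-coding genes 30.2% were in none. In the wild-type RBPJ list were 7 of the 8, against 54.2% of all genes and 66.6% of the other chromosome 19 genes outside clusters. With 8 genes the counting error is wide, and the difference was not tested.

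Other protein-coding genes that lie within the clusters, under any symbol outside the rule, also had lower shares than those outside them. Of 152 such genes, 42.1% had a gene-end interval in the wild-type RBPJ list (95% interval 34.2 to 50.4), close to the 41.5% of the ZNF genes, against 66.6% of the genes of chromosome 19 outside the clusters. In the knockout RBPJ list the values were 38.8% and 62.9%, with 30.5% of the ZNF genes. They were 29.6% and 48.4% in the list titled RBPJ and 23.7% and 39.3% in that titled RBPJK175R. There the ZNF genes stood at 33.7% and 30.9%, above the other genes of the clusters but inside their 95% intervals. These shares join clusters that differed. In the wild-type RBPJ list cluster 2 had 31 of 54 such genes, against 6 of 15 ZNF genes. Cluster 10 had 11 of 45, against 29 of 59. For ATAC in wild type the shares within and outside the clusters were 38.2% and 54.0%. There the other genes of the clusters were below the 61.8% of the ZNF genes.

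The first comparison asked what changes at these genes in the RBPJ lists without FBXO42. At their gene ends 64 ZNF genes had an interval in both lists (26.0%, against 36.8% of all genes), 38 in wild type only (15.4%, against 17.4% of all genes) and 11 in knockout only (4.47%, against 4.27%). The shares in 1 list only were near the background, and the share in both lists was below it. Of the 102 in wild type, 62.7% were also in the knockout list (95% interval 52.6 to 72.1), against 67.9% of all genes and 84.4% of the other chromosome 19 genes. The ratio of knockout to wild-type counts was 0.735 for ZNF genes, 0.758 for all genes and 0.942 for other chromosome 19 genes. The interval behind 1 of the 38, at ZNF302, overlapped a knockout interval that lay outside the window, with 61 reads in wild type and 47 in knockout.

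ZNF383 had the highest fold among those in wild type only, 12.2 on 71 reads. The nearest knockout interval was 32922 bp from it, and the gene had folds of 28.0 and 22.5 in the lists titled RBPJ and RBPJK175R, which also come from knockout cells. ZNF582 followed with a fold of 10.2 on 29 reads in wild type, and it had 8.99 in the list titled RBPJ and no interval in the list titled RBPJK175R. The median summit of the 38 had 17 reads. At a −log10 q of at least 10 the counts in 1 list only were 21 in wild type and 0 in knockout. No share over all genes was taken at this threshold. Without it, those in knockout only had at most 15 reads, with ZNF615 the highest at a fold of 5.70 on 14 reads. ZNF568, a repressor of a placental Igf2 transcript in mice, and ZNF829 start beside each other and shared 1 knockout interval with a fold of 5.32 on 13 reads.

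At the 57 ZNF genes whose strongest intervals overlapped between the lists, the knockout list had a median of 0.606 times the reads of wild type, against 0.530 for all genes. The reads were higher in knockout at 2 of the 57. One was ZNF566, with 124 reads in wild type and 137 in knockout. The whole list had a similar ratio, and the part of sequencing depth in it was not tested.

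The second comparison set RBPJ beside RBPJK175R, a form with arginine in place of a lysine, in cells labelled as FBXO42 knockout. Both lists held a gene-end interval at 62 ZNF genes (25.2%, against 24.6% of all genes), the list titled RBPJ alone at 21 (8.54%, against 13.6% of all genes) and the list titled RBPJK175R alone at 14 (5.69%, against 4.63%). The ratio of the second count to the first was 0.916, against 0.766 for all genes and 0.811 for other chromosome 19 genes. Of the 83 ZNF genes in the list titled RBPJ, 74.7% were also in the other (95% interval 64.0 to 83.6). The share over all genes, 64.5%, lay inside that interval. ZNF284, with a fold of 11.3 on 27 reads, ZNF582 and ZNF780A had the highest folds among those in the list titled RBPJ alone. Among the 14, the intervals of ZNF302, ZNF266 and ZNF132 overlapped an interval of the list titled RBPJ that lay outside the window. ZNF585A had the highest fold of the rest, 9.55 on 15 reads. At a −log10 q of at least 10 the list titled RBPJK175R alone held 4, and no ratio or share over all genes was taken at this threshold. At the 57 overlapping pairs the list titled RBPJK175R had a median of 0.462 times the reads, against 0.5 for all genes.

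The third comparison asked what changes in accessible chromatin without FBXO42. Both ATAC lists held 121 ZNF genes (49.2%, against 41.3% of all genes), wild type alone 31 (12.6%, against 15.1% of all genes) and knockout alone 3 (1.22%, against 1.45%). The 3 were ZNF28, ZNF222 and ZNF841, with 6, 6 and 5 reads at their summits. ZNF780A, with a fold of 13.8 on 33 reads, and ZNF549, with 10.4 on 16 reads, had the highest folds among those in wild type alone. Of the 152 in wild type, 79.6% were also in knockout (95% interval 72.3 to 85.7), against 73.2% of all genes. At 116 overlapping pairs the median ratio of knockout to wild-type reads was 0.546, against 0.5 for all genes, and 5 were above equality. At a −log10 q of at least 10, wild type alone held 73 ZNF genes and knockout alone 0. The knockout list was the shallower of the pair, and no share over all genes was taken at this threshold. Without the threshold, the share found again in knockout included the whole-list value in its interval.

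**Figure D2:**
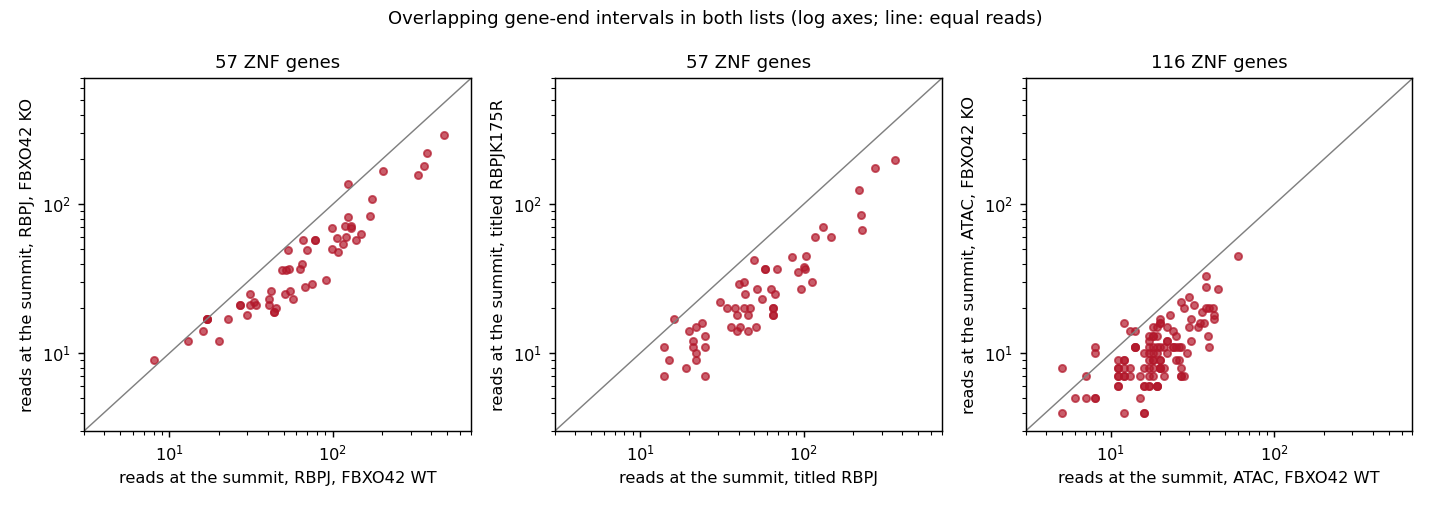
Reads at the summit of the strongest gene-end interval in both lists of each pair, on log axes, 1 point per ZNF gene whose intervals overlap (57, 57 and 116 genes). The grey line marks equal reads. Nearly all points lie under the line in each pair, with 2, 1 and 5 above it.

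Inside the genes, ZNF genes had fewer intervals per length than other genes of the chromosome, although they were longer, with a median of 23.2 kb against 12.8 kb. Inside intervals were found in 49 ZNF genes in the wild-type RBPJ list (19.9%, against 37.3% of all genes) and in 60 in the knockout RBPJ list (24.4%, against 32.1%). The lists titled RBPJ and RBPJK175R had 52 (21.1%, against 22.7%) and 67 (27.2%, against 27.3%). The ATAC lists had 34 (13.8%, against 31.3%) and 30 (12.2%, against 21.9%). Per Mb of gene outside the end windows there were 10.9 and 13.8 intervals in the wild-type and knockout RBPJ lists, against 62.9 and 78.8 in other chromosome 19 genes and 14.9 and 14.1 over all genes. The lists titled RBPJ and RBPJK175R had 10.02 and 13.01, against 26.1 and 29.2 in other chromosome 19 genes and 6.145 and 8.005 over all genes. The ZNF genes were thus below the other chromosome 19 genes in all 4 lists. They were near all genes in the knockout RBPJ list and above all genes in the second pair.

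In the first pair 17 ZNF genes had an inside interval in wild type only (6.91%, against 14% of all genes) and 28 in knockout only (11.4%, against 8.82%), so knockout had the larger number, a ratio of 1.22 against 0.861 for all genes. With only intervals of a −log10 q of at least 10, the counts with an inside interval were 18 in wild type and 15 in knockout, and the order turned. In the second pair 15 had one in the list titled RBPJ only (6.10%, against 7.08%) and 30 in the list titled RBPJK175R only (12.2%, against 11.6%). In the ATAC pair the counts were 13 (5.28%, against 14.1%) and 9 (3.66%, against 4.70%).

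The strongest of the inside intervals seen in 3 or 4 RBPJ lists lay at further starts listed for a gene. ZNF799 had none at its annotated ends, and 1 inside interval in each list at such a start, with RBPJ folds of 15.3, 6.83, 38.9 and 24.5 and ATAC folds of 8.76 and 11.7. ZNF749 had 18.0, 15.2, 9.13 and 7.48 in the RBPJ lists and 12.5 and 7.47 in the ATAC lists. The inside interval of ZNF565 was the interval at the start of ZNF146, which lies within it. A listed start of the gene itself accounted for 22 of 73 inside intervals in the wild-type RBPJ list and 27 of 39 in the wild-type ATAC list.

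When overlapping inside intervals of all lists were merged they gave 230 regions. Of these, 141 were in 1 RBPJ list, 34 in 2, 12 in 3 and 17 in all 4, and 26 were in ATAC lists only. Thus most merged regions with an RBPJ interval were seen in a single RBPJ list. Such regions were not counted for other genes, so the counts of merged regions stand without a background. Of the 29 regions in 3 or 4 RBPJ lists, 17 also had an ATAC interval, and 16 of those lay at a listed start or an annotated gene end. The 12 without an ATAC interval included 3 at such a place. Their middle lay a median of 4.39 kb from the 3′ end of the gene (11 with a strand), and 6 of the 11 were within 5 kb of it. For the 17 with an ATAC interval the median was 11.8 kb.

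ZNF317 is an example, with an RBPJ region centred 2.79 kb before its 3′ end (folds 3.72, 4.56, 8.11 and 8.91) and no ATAC interval there. ZNF792 had one centred 1.81 kb before its 3′ end, with folds of 5.31, 4.57, 4.16 and 8.63. These intervals rested on few reads, 11 to 19 in ZNF317 and 12 to 21 in ZNF792. By summits, 42.2% of the inside intervals of the list titled RBPJ, 35.6% of the knockout RBPJ list and 34.6% of the list titled RBPJK175R lay within 5 kb of the 3′ end. For other chromosome 19 genes these shares were 23.1%, 20.7% and 19%. The wild-type RBPJ list had 22.1% against 21.5%, and the ATAC lists had 13.5% and 12.5% against 20.3% and 19.6%. ZNF genes and other genes differ in length, and the part of length in these shares was not tested.

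The promoters share letters that the rule did not use. TGGGAA on either strand was present in the 300 bases around the start of 88 of 216 ZNF genes (40.7%, 95% interval 34.1 to 47.6), against 24.8% of other chromosome 19 genes, 34.1% of ZNF genes elsewhere and 22.8% of all 15843 promoters. Of the 85 with a 5′ interval in the wild-type RBPJ list 54.1% held it, and of the 131 without one 32.1%. Over all genes the shares with and without such an interval were 22.5% and 23.2%. The ATAC lists split the ZNF promoters in the same direction. There TGGGAA was held by 45.6% with a 5′ interval and 32.5% without in wild type, and by 48.2% and 33.0% in knockout. CCGGAAG was found in 44.9% of the ZNF promoters, against 13.0% of other chromosome 19 promoters, 14.2% of all and 33.2% of those of ZNF genes elsewhere. It was present in 38.8% of the ZNF promoters with a wild-type RBPJ interval and 48.9% of those without, a difference that was not tested. Over all genes the order was the opposite, 19.1% with and 8.48% without. GGGCGG was found in 67.1%, close to the 65.7% of other chromosome 19 promoters, against 58.3% of all. CpG dinucleotides had a median of 16 per promoter in ZNF genes in no list and of 23 in those in all 6 lists.

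In part of these promoters TGGGAA belongs to a longer element, ACTACA followed after 1 base by TTCCCA, known from promoters bound by ZNF143 and THAP11. This element was searched for after the sequences had been seen. It was present in 21 of the 216 ZNF promoters (9.72%), among them those of ZNF260 and ZNF850 shown above, against 1.14% of other chromosome 19 promoters and 1.04% of all. ZNF genes elsewhere held it in 6.07% (95% interval 3.27 to 10.2), which overlaps the interval of the chromosome 19 genes, 6.12 to 14.5. Of the 21, 12 had a 5′ interval in the wild-type RBPJ list and 17 in the wild-type ATAC list. Over all 165 genes with the element, 134 (81.2%) and 144 (87.3%) had one. Of the 67 with TGGGAA outside the element, 34 had a wild-type RBPJ interval, and of the 128 without TGGGAA, 39. ZNF260 had RBPJ folds of 5.35, 4.72, 20.5 and 25.7, so the second pair was above the first, and ZNF850 had 4.82, 4.70 and 8.18 and none in the list titled RBPJK175R. ZNF493, with no RBPJ interval, holds TGGGAA, and so does ZNF431, with 2. A match describes the letters only and is no binding site.

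Genes that work with KRAB zinc finger proteins were read in the same way. Of 27 such genes, 21 (77.8%, against 54.2% of all genes) had a gene-end interval in the wild-type RBPJ list and 16 (59.3%, against 41.0%) in the knockout RBPJ list. The lists titled RBPJ and RBPJK175R had 15 (55.6%, against 38.2%) and 13 (48.1%, against 29.3%). For ATAC the counts were 24 (88.9%, against 56.3%) in wild type and 16 (59.3%, against 42.7%) in knockout. With 27 genes these shares carry a wide counting error, and the differences were not tested. TRIM28, the KRAB corepressor, SETDB1, the H3K9 methyltransferase it recruits, and CBX1, CBX3 and CBX5, the heterochromatin proteins, were in all 6 lists. So were HDAC1, H3-3A, SUV39H2 and DNMT1, and 17.5% of all genes. UHRF1, EHMT2 and DAXX had no gene-end interval in any list, and ATRX and SMARCAD1 had one in the ATAC lists only. In wild type only of the first pair were ATF7IP, the partner of SETDB1, the DNA methyltransferase DNMT3A, the deacetylase HDAC2, MORC2, which works with the HUSH silencing complex, and MPHOSPH8 and PPHLN1 of that complex. These were 6 of 27 (22.2%), against 17.4% of all genes, and DNMT3B was the 1 gene in knockout only.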

How the data were processed

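Called peaks of 6 of the 9 libraries were used (CUT&Tag for RBPJ in HEK293T, ATAC-seq in cells labelled Jurkat), 1 library per group as the sample titles give them. The 3 IgG libraries were not used here. The submitters' processing notes name hg38 as the build and, as tools, Trim Galore, Bowtie2, MACS2 and deepTools; for versions, settings, multiple-mapping filters and controls, these notes give nothing. The deposited lists give the fold per interval, a ratio of summit pileup to local background, the −log10 of a p-value and of a q-value, and a score, which was not used further. These are the authors' own values for each interval.

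Genes came from a RefSeq table on GRCh38.p14 without strand. Strand and starts came from RefSeq promoter entries, matched by gene identifier for 216 of the 246 genes. Proteins were not analysed here. Reads at summits were solved from the fold and the −log10 p under a Poisson background, within 0.1% of the −log10 p, and were whole for at least 99.99% of intervals in each list. In the list titled RBPJ the deposited pileups were whole after a scale of 0.812 was divided out. Overlap counting and read recovery were tested on simulated data. Python 3.11.15, pandas 2.3.3, numpy 2.4.6 and scipy 1.17.1 were used. Shares carry Clopper-Pearson 95% intervals, which cover counting error over genes only, and neighbouring genes can share an interval. With 1 library per group no test was made.

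Named genes were, by rule, the 5 highest gene-end and inside folds per list, up to 10 by fold in 1 list of a pair only, up to 10 in all 6 lists by mean rank of fold, and the leading gene of each cluster. ZNF260, ZNF850, ZNF493, ZNF155, ZNF544, ZNF274, ZNF317 and ZNF792, where outside that rule for the result given, were chosen after their values were seen. The members and gene lists were chosen with earlier results of these data known. Alternatives were other window widths, summits in place of intervals, stricter q-values, other cluster gaps, intervals counted once and, added after seeing the data, intervals without those at an end of another gene.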

Additional observations from a re-analysis of the deposited data

How the results depend on the processing

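Among 169 alternative values, 139 stayed within 1.5 times the reported count or within the counting error of the reported share, 29 moved further and 1 reversed. Window half-widths of 500 bp and 2 kb, summits in place of intervals, and leaving out intervals at the end of another gene moved none of them. The q-value threshold moved most. At a −log10 q of at least 10, ZNF genes with a gene-end interval numbered 60 and 39 in the wild-type and knockout RBPJ lists, 51 and 36 in the lists titled RBPJ and RBPJK175R, and 100 and 27 in the ATAC lists. The numbers in 1 list only were then 21 (wild-type RBPJ), 0 (knockout RBPJ), 4 (RBPJK175R), 73 (wild-type ATAC) and 0 (knockout ATAC). Shares over all genes were not taken at the stricter q-values, so these counts have no background. Inside intervals were then in 18, 15, 13, 12, 15 and 6 ZNF genes over the 6 lists. The difference in share from other chromosome 19 genes was −17.8 percentage points in the knockout RBPJ list (reported −29.3) and −2.72 in the knockout ATAC list, where the reported 11.1 reversed; the cause was not tested. At a −log10 q of at least 5, knockout RBPJ only fell to 3, RBPJK175R only to 7, and wild-type ATAC only became 55, with inside counts of 26, 28, 30 and 17 in the wild-type RBPJ, knockout RBPJ, RBPJK175R and knockout ATAC lists. Inside intervals of the knockout RBPJ list counted once came to 92, in place of 60 genes. Gaps of up to 2 Mb gave 6 clusters in place of 10. Among ZNF genes with a gene-end interval in the wild-type RBPJ list, 52.7% held TGGGAA and 37.4% held CCGGAAG, against 40.7% and 44.9% over all 216. No paired analysis was possible because each group had 1 library. Summits with few reads limit the knockout ATAC and RBPJK175R lists most: their medians were 8 and 9 reads, so a gene in the other list of the pair only may not have been detectable at this depth.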

Other observations

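Zinc finger genes of chromosome 19 with other symbols were 16 genes of the ZFP, ZSCAN, ZIM and ZIK names and PEG3. They had a gene-end interval in 4, 4, 3 and 2 cases in the RBPJ lists, in the order wild type, knockout, RBPJ and RBPJK175R. In the ATAC lists of wild type and knockout there were 3 and 4 cases. Over all protein-coding genes the shares were 54.2%, 41.0%, 38.2% and 29.3% in the RBPJ lists, and 56.3% and 42.7% for ATAC. The share of the 16 genes was lower in each list, and the differences were not tested. ZFP14, ZFP30 and ZSCAN22 were in each of the first 3 RBPJ lists. The list includes ZFP36, an RNA-binding protein with fingers of another type, which was in the wild-type RBPJ list. At 115 of the 246 ZNF genes the nearest interval of the wild-type RBPJ list was over 10 kb from either end of the gene. At 10 it was between 1 and 2 kb away, just outside the window. These distances were not taken for other genes, so both counts stand without a background.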
